A study of Mus musculus with 2 samples.

Results

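Goblet cells that carried Kit transcript in the mouse colon were examined. They were chosen by their measured UMIs of Muc2 and Kit, so the levels of these genes in them are no result. Members were barcodes with at least 50 UMIs of Muc2 per 10000 and at least 1 UMI of Kit, where a UMI (unique molecular identifier) stands for 1 captured transcript molecule. Only barcodes with at least 5000 UMIs and at most 25% of UMIs from mitochondrial genes were kept. This gave 732 Kit goblet cells among 9329 kept cells of 27542 deposited barcodes, with 321 of 3963 kept cells in the library labelled GFP and 411 of 5366 in the library labelled whole epithelium. They were set against the Muc2-defined goblet cells of the same library without a Kit UMI, 471 in the library labelled GFP and 162 in the library labelled whole epithelium.

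Mice of the genotype c-Kit-creERT2;Rosa26-mTG gave the library labelled GFP, after 1 intraperitoneal injection of tamoxifen (1 mg per 20 g). In these mice the Kit gene drives a tamoxifen-dependent recombinase, and recombined cells and their progeny switch to membrane GFP. The GFP-positive cells, which the labels give as descendants of c-Kit-positive cells, were sorted by flow cytometry. The library labelled whole epithelium came from untreated c-Kit-creERT2 mice, so both groups carry the recombinase allele. The labels used here give neither the number of animals per library nor their age or sex, and each group is 1 library of epithelium released from the whole colon with EDTA. With 1 library per group no significance test was made, no p-value was computed, and every interval given here covers counting error at 95% only, neither animals nor the variation among cells.

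Before any result, 2 features of the files matter. The matrices are crossed in the records, and each was assigned to the sample whose barcode list has its number of columns, 13575 for GFP and 13967 for whole epithelium. Every direction between the libraries would turn with the reverse assignment, while each comparison within a library stays as it is. The Rosa26-mTG reporter is inserted at the locus of Gt(ROSA)26Sor, and in Kit goblet cells this transcript had 7 UMIs (0.710 CPM) in GFP and 287 UMIs (26.9 CPM) in whole epithelium, the libraries being named by their labels here and below. CPM is the summed UMIs of a gene in a set of cells, scaled to a total of 1000000. The deposited totals were 150348319 UMIs for GFP and 164185392 UMIs for whole epithelium. The libraries share 60 barcodes, and 2 Kit goblet cells of the library labelled GFP and 3 of the library labelled whole epithelium have a barcode that was also kept in the other library.

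Goblet cells make and secrete the gel-forming mucin Muc2, which builds the mucus layers of the colon. Kit is a receptor tyrosine kinase that binds stem cell factor, the product of Kitl, and signals through phosphoinositide 3-kinase, Src family kinases and the Ras and MAP kinase route. In the colon crypt it is known from a class of secretory cells at the crypt base, often called deep crypt secretory cells, which lie between the stem cells, express Reg4, and supply Notch and epidermal growth factor ligands. Mature goblet cells of the upper crypt and surface carry Zg16, Clca1 and Fcgbp at high levels.

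Promoters of 3 genes are shown because the results turn on them: Kit, whose promoter also drives the recombinase in both groups, B3galt2, a galactosyltransferase gene with the highest shared ratio in Kit goblet cells, and Fcgbp, a mucus protein gene that was lower in them. Each runs from 250 bases before to 50 bases after the gene's start, 5′ to 3′ on the gene's strand, from RefSeq on GRCm38.p6. Kit lies at chr5:75574737-75575036, B3galt2 at chr1:143640447-143640746 and Fcgbp at chr7:28070986-28071285, all on the plus strand. Capitals mark the letters CAGCTG or CAGATG (read on both strands, CAGATG as CATCTG), forms of the E-box that Atoh1, the master transcription factor of the secretory lineage, is known to bind.
Kit: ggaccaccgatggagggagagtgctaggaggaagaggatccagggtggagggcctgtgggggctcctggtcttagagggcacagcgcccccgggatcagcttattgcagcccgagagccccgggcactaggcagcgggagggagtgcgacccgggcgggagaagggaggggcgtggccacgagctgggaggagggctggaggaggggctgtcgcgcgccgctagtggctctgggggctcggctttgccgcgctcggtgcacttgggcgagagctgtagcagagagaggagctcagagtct
B3galt2: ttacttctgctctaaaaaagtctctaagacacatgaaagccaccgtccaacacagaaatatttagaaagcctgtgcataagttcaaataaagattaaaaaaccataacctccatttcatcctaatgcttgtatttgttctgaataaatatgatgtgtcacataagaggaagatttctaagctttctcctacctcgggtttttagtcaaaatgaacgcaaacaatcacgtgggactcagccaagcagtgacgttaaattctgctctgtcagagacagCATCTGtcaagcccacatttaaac
Fcgbp: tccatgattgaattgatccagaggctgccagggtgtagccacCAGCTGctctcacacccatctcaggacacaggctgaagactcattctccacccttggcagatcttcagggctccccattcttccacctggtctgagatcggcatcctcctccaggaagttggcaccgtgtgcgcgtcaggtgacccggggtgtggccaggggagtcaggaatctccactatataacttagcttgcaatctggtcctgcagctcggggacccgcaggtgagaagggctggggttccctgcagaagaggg
CAGCTG occurred once in the Fcgbp promoter and CAGATG once in the B3galt2 promoter, and neither occurred in that of Kit. Of 32851 RefSeq promoters of this length, 16.3% held CAGCTG and 17.2% held CAGATG. The Tcf motifs CTTTGAT (3.73% of promoters) and CTTTGAA (5.14%) were in none of the 3. The promoters of Reg4 and Krt20, not shown, were also scanned and held none of these E-box or Tcf motifs.

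Kit detection rested on few molecules and depended on depth. In the library labelled GFP, 192 Kit goblet cells held 1 Kit UMI, 108 held 2 or 3, and 21 held 4 or more, with at most 5 in a cell. In the library labelled whole epithelium the numbers were 122, 161 and 128, with at most 10 in a cell. The Kit goblet cells of the library labelled GFP had a median of 26487 UMIs and 4927 genes, against 25001 UMIs and 4489 genes in its goblet cells without Kit. Those of the library labelled whole epithelium had a median of 22252 UMIs and 4496 genes, against 10808 UMIs and 3058 genes in its goblet cells without Kit. The mitochondrial share had a median of 7.20% in Kit goblet cells and 7.23% in goblet cells without Kit in the library labelled GFP, and of 7.12% and 10.2% in the library labelled whole epithelium. The members are therefore deeper cells, by a wide margin in the library labelled whole epithelium, and each ratio below was also computed with the cells without Kit weighted to the depth of the Kit cells.

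Kit UMIs were found in 40.5% of goblet cells of the library labelled GFP (exact interval 37.1% to 44.0%) and in 71.7% of those of the library labelled whole epithelium (67.8% to 75.4%). Colonocytes, taken as cells below the Muc2 threshold with at least 50 UMIs per 10000 of Slc26a3, Car1, Car4, Aqp8 and Krt20 together, should lack Kit and give the background. A Kit UMI was seen in 27 of 1348 such cells (2.00%, median depth 19355.5 UMIs) in the library labelled GFP and in 58 of 1849 (3.14%, median depth 18491 UMIs) in the library labelled whole epithelium. After every cell was thinned to 5000 UMIs, the goblet share was 13.1% in GFP and 35.3% in whole epithelium, against 0.371% and 1.08% of colonocytes. The share of goblet cells with Kit was thus higher than the colonocyte share in each library, also at equal depth.

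In the library labelled whole epithelium the share with Kit climbed with depth, from 33.3% of goblet cells with 5000 to 10000 UMIs to 91.6% of those with 30000 or more. In the library labelled GFP it was 26.7% in the shallowest of the 5 depth classes and between 36.9% and 44.0% in the others. Among cells without a Kit UMI, those in which Kit was missed and those that lack it cannot be told apart. Goblet cells held 69.4% of the Kit UMIs of kept cells in the library labelled GFP (531 of 765) and 61.3% in the library labelled whole epithelium (1189 of 1940).

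**Figure D1:**
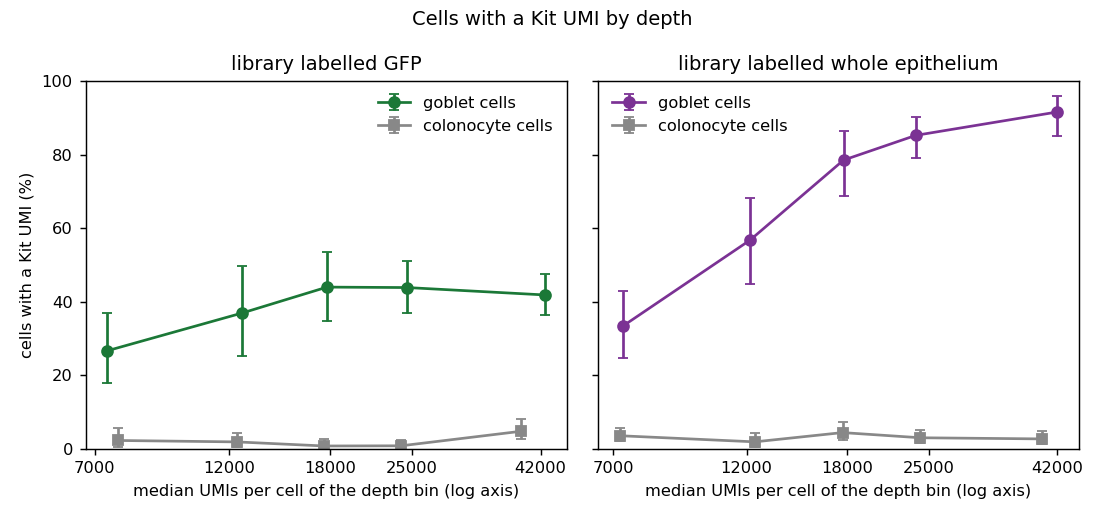
Share of cells with a Kit UMI (percent) against the median UMIs per cell of 5 depth classes (log axis) for goblet cells (circles) and colonocytes (squares), with exact 95% binomial intervals. The goblet share reaches 91.6% in the deepest class of the library labelled whole epithelium and 41.8% in that of the library labelled GFP, and colonocytes stay at or below 4.76%.

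Cells with Kit below the Muc2 threshold numbered 180 in the library labelled GFP and 409 in the library labelled whole epithelium. Atoh1 was detected in 53.9% of them in GFP and in 41.1% in whole epithelium, against 9.70% and 6.20% of the other cells below the threshold. These Kit cells were deeper, with a median of 30523.5 against 21386 UMIs in GFP and 23474 against 21954 UMIs in whole epithelium. Their Atoh1 shares were not compared at equal depth. At the threshold itself, the lowest Kit goblet cell had 50.2 Muc2 UMIs per 10000 in GFP and 50.0 in whole epithelium, and the highest excluded cell with Kit had 48.2 and 49.7. Kit cells with 50 to 60 Muc2 UMIs per 10000 numbered 16 in GFP and 26 in whole epithelium, and those with 40 to 50 numbered 20 and 24. Kit cells on both sides of the threshold thus formed a continuous range. Among cells below the threshold with an Lgr5 UMI, the marker of crypt base stem cells, Kit was seen in 13 of 61 (21.3%) in GFP and in 94 of 432 (21.8%) in whole epithelium. Over all cells below the threshold the shares were 5.68% and 8.53%. Thinned to 5000 UMIs, Kit was seen in 1.64% and 6.25% of the cells with Lgr5, and in 1.51% and 3.40% of all cells below the threshold.

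Of 8421 genes with at least 100 UMIs over both sets of goblet cells in each library, leaving out Kit and Muc2, 103 (1.22%) were at least 1.41-fold higher in Kit goblet cells in both libraries and 178 (2.11%) were lower by that factor in both. This factor is 0.5 on the log2 scale and is called the fold limit here. All ratios are log2 of CPM in Kit goblet cells over goblet cells without Kit, GFP first, and the median over all genes was 0.05 in GFP and 0.02 in whole epithelium. In GFP alone 215 genes (2.55%) were higher and 223 (2.65%) lower past the limit, and in whole epithelium alone 679 (8.06%) and 583 (6.92%). With depth standardised, 90 of the 103 and 129 of the 178 passed again. After every cell was thinned to 5000 UMIs and the goblet cells were sorted anew by their remaining Kit UMIs, 3669 genes were kept, and 50 were higher and 95 lower in both libraries, of which 9 and 54 were among the 103 and 178.

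Several proteins of mature mucus were lower in Kit goblet cells. Zg16, a lectin-like protein that binds bacterial cell walls and keeps them from the epithelium (chromosome 7, 127050156 to 127087328, minus strand, the gene's span in GENCODE on GRCm38), had 2491 CPM in Kit goblet cells and 8617 CPM in goblet cells without Kit of the library labelled GFP. In whole epithelium it had 1927 CPM with Kit and 7284 CPM without. The log2 ratios were -1.79 (-1.81 to -1.77) in GFP and -1.92 (-1.95 to -1.89) in whole epithelium. Tff3, the intestinal trefoil factor, had 936.4 against 2402 CPM in GFP and 991.9 against 2784 CPM in whole epithelium (log2 -1.36 and -1.49). Fcgbp, which cross-links to Muc2 in mucus, had 2310 against 4784 CPM in GFP and 658.5 against 2523 CPM in whole epithelium (-1.05 and -1.94). Clca1, a secreted metalloprotease of the mucus, had 3081 against 6127 CPM in GFP and 333.2 against 1824 CPM in whole epithelium (-0.99 and -2.45). All 4 stayed past the fold limit in both libraries when depth was standardised, with Zg16 at -1.80 and -2.01, Tff3 at -1.39 and -1.45 and Fcgbp at -1.03 and -1.98, and with Clca1 at -2.60 in whole epithelium. Another goblet gene, Capn9, a calpain protease, was past the fold limit as well (-0.80 and -0.95).

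For Zg16 most of each sum came from a minority of cells. Cells with at least 50 Zg16 UMIs per 10000, a limit chosen after the values were seen, were 23 of 321 Kit goblet cells (7.17%, 4.60% to 10.6%) against 109 of 471 goblet cells without Kit (23.1%, 19.4% to 27.2%) in the library labelled GFP. In the library labelled whole epithelium they were 46 of 411 Kit goblet cells (11.2%, 8.31% to 14.6%) against 55 of 162 goblet cells without Kit (34.0%, 26.7% to 41.8%). In each set of goblet cells these cells held at least 86.2% of the Zg16 UMIs. The median cell had 1.80 Zg16 UMIs per 10000 with Kit and 3.77 without in GFP, and 0.384 with Kit and 3.43 without in whole epithelium. Clca1 passed 50 UMIs per 10000 in 16.8% of Kit goblet cells and 29.5% of goblet cells without Kit in GFP, and in 1.22% and 8.64% in whole epithelium. In whole epithelium 3 of the cells without Kit held 47.8% of the Clca1 UMIs of that set. With every cell given the same weight the Clca1 ratio there was -2.29, and the median cell had 0 Clca1 UMIs per 10000 with Kit and 1.10 without. Tff3 passed 50 UMIs per 10000 in 4.36% of Kit goblet cells and 15.1% of goblet cells without Kit in GFP. In whole epithelium Tff3 passed it in 5.60% (3.58% to 8.28%) and 8.02% (4.34% to 13.3%), where the intervals overlap. The median cell of whole epithelium also differed, with 0.956 Fcgbp UMIs per 10000 with Kit and 7.22 without, and 0.779 and 5.57 Tff3 UMIs per 10000. In GFP the Fcgbp medians were 3.09 with Kit and 10.0 without, but those of Tff3 were nearer to each other, at 1.65 and 2.11. Kit goblet cells thus included Zg16-rich cells, but a smaller share of them than goblet cells without Kit in each library.

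Other goblet genes had positive ratios. Agr2, a disulfide isomerase needed for Muc2 folding, had 10782 CPM in Kit goblet cells and 8245 CPM in goblet cells without Kit in GFP, and 10556 and 7149 CPM in whole epithelium (log2 0.39 and 0.56). Spink4, a goblet cell protease inhibitor, had 11257 and 9421 CPM in GFP and 10347 and 8134 CPM in whole epithelium (0.26 and 0.35). Spdef, the transcription factor of goblet maturation, stood at 0.42 and 0.68. Past the fold limit in both libraries were Creb3l1, a transcription factor of secretory cells (0.52 and 0.81), and Ccl6, a chemokine (586.5 against 397.7 CPM in GFP and 1658 against 841.6 CPM in whole epithelium, 0.56 and 0.98). Of the 25 goblet list genes kept, apart from Muc2, 2 were higher and 5 lower past the limit in both libraries, and 13 were positive and 9 negative in both. Among all genes 1.22% were higher and 2.11% lower past the limit in both, and 41.4% were positive and 27.1% negative. The goblet list thus did not move as 1 group.

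The machinery that makes and decorates mucin leaned higher, in a set whose median Muc2 was also higher in both libraries. Of 24 kept genes of mucin O-glycosylation, 20 had positive ratios in both libraries and 1 negative ones, against 41.4% positive and 27.1% negative in both among all genes, with medians of 0.32 in GFP and 0.52 in whole epithelium. Past the fold limit in both were Galnt3 (132.3 against 92.4 CPM in GFP, 147.0 against 91.2 CPM in whole epithelium) and Galnt5 (48.8 against 33.5 CPM in GFP, 53.2 against 25.7 CPM in whole epithelium), which attach the first sugar to serine or threonine. The third was B3gnt6, the core 3 synthase of colon mucin (31.0 against 21.1 CPM in GFP, 73.7 against 44.3 CPM in whole epithelium), which at standardised depth was at 0.46 in whole epithelium, inside the limit. C1galt1, which makes core 1, stood at 0.32 and 0.84, and Gcnt3, a branching enzyme, at 0.34 and 0.69. The single negative gene was St3gal4, a sialyltransferase (-0.43 and -0.67).

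Of 40 kept genes of the secretory pathway and unfolded protein response, 37 were positive in both libraries and 1 negative. Among all genes 41.4% were positive and 27.1% negative in both. The list's medians were 0.16 and 0.40, with 0.28 in whole epithelium at standardised depth. Only Creb3l1 passed the fold limit in both, where 1.22% of all genes were higher past it. Ern2, the endoplasmic reticulum stress sensor of mucous cells, stood at 0.40 and 0.68, Xbp1, the factor it activates, at 0.25 and 0.50, and Kdelr3, a retrieval receptor, at 0.45 and 0.82. The negative gene was Ddit3, a stress-induced transcription factor (-0.36 and -0.05). Small positive ratios in both libraries were also seen in 28 of 29 ribosomal protein genes, against the 41.4% of all genes. Their medians were 0.09 and 0.15, with a whole epithelium median of 0.02 at standardised depth.

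**Figure D2:**
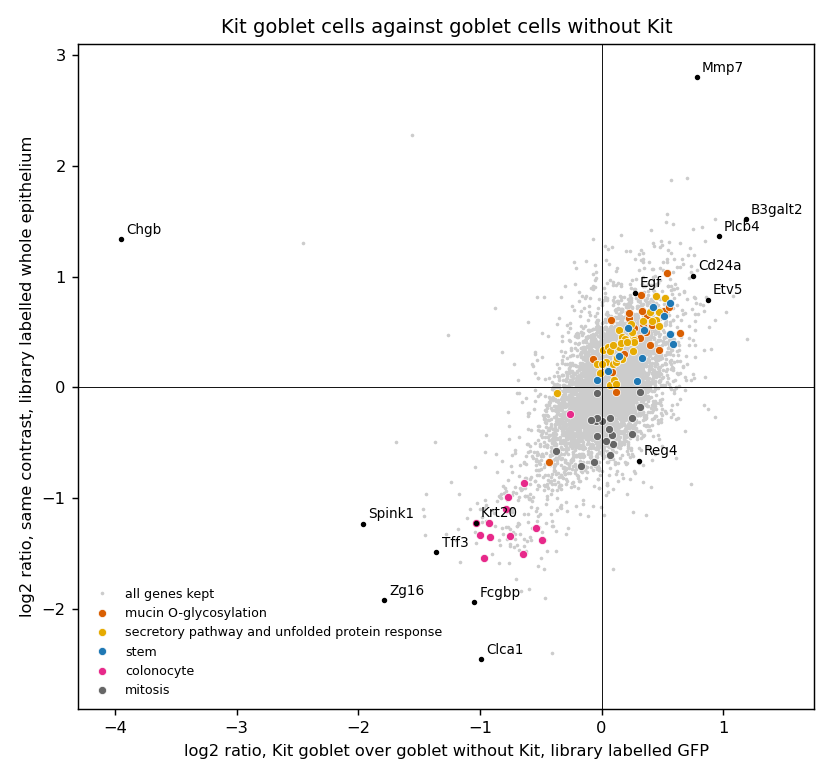
Log2 ratio of each of 8421 genes in Kit goblet cells over goblet cells without Kit, library labelled GFP (x axis) against library labelled whole epithelium (y axis), with 5 gene lists coloured and single genes named. Mucus protein genes and 13 colonocyte genes lie lower left, O-glycosylation and secretory genes upper right, and Chgb and Reg4 have opposite signs.

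Genes of the deep crypt were higher in part. Of 10 kept genes of the deep crypt secretory list, Cd24a, a cell surface glycoprotein (616.3 against 366.1 CPM in GFP, 905.4 against 449.5 CPM in whole epithelium, log2 0.75 and 1.01), Cd44, a hyaluronan receptor of the crypt base (0.59 and 0.89), and Dll1, a Notch ligand (0.93 and 0.61), were past the fold limit in both libraries. Dll4, another Notch ligand, was at 11.2 against 6.08 CPM in GFP but at 15.3 against 17.3 CPM in whole epithelium (0.87 and -0.19). Egf was at 6.09 against 5.05 CPM in GFP and at 13.3 against 7.18 CPM in whole epithelium (0.27 and 0.85). The list's 1 gene past the limit downward was Areg, a ligand of the epidermal growth factor receptor (46.6 against 95.9 CPM in GFP, 110.8 against 181.5 CPM in whole epithelium, -1.04 and -0.71). Hbegf, a ligand of the same receptor family, was also lower (-0.71 and -0.56). The ligands therefore did not move as 1 group. Of the 8 niche ligand genes kept of 29, 1 was higher and 2 lower past the limit in both. For either list, the shares over all genes were 1.22% higher and 2.11% lower past the limit in both.

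Reg4, the best known marker of deep crypt secretory cells, differed in opposite directions in the libraries. It had 795.5 CPM in Kit goblet cells and 644.4 CPM in goblet cells without Kit in the library labelled GFP (log2 0.30), and 715.3 and 1129 CPM in whole epithelium (-0.66). In whole epithelium 3 of the cells without Kit held 51.6% of the Reg4 UMIs of that set, and with every cell given the same weight the ratio there was 0.16. Cells with at least 10 Reg4 UMIs per 10000, a limit chosen after the values were seen, were 62 of 321 Kit goblet cells (19.3%, 15.1% to 24.1%) against 70 of 471 without Kit (14.9%, 11.8% to 18.4%) in GFP. In whole epithelium they were 74 of 411 Kit goblet cells (18.0%, 14.4% to 22.1%) against 17 of 162 without Kit (10.5%, 6.23% to 16.3%), and the intervals overlap in both libraries. When the goblet cells of a library were ordered by Reg4 and split into low, middle and high classes, 38.8%, 42.0% and 41.7% carried Kit in GFP, and 71.1%, 83.2% and 67.0% in whole epithelium. Thinned to 5000 UMIs the shares were 13.5%, 9.57% and 15.2% in GFP, and 35.5%, 36.8% and 34.0% in whole epithelium.

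Few Kit goblet cells were rich in both Zg16 and Reg4. By the limits above, 2 of 321 were in GFP and 8 of 411 in whole epithelium, while 238 of 321 (74.1%) and 299 of 411 (72.7%) reached neither limit. Among goblet cells without Kit, 5 of 471 in GFP and 5 of 162 in whole epithelium were rich in both. Neither limit was reached by 297 of 471 (63.1%) and 95 of 162 (58.6%) of them. Most goblet cells of either set thus carried Muc2 without high Zg16 or high Reg4.

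Genes of stem cells and of the secretory fate were mostly higher. Among all genes 41.4% were positive and 27.1% negative in both libraries, and 1.22% were higher past the fold limit in both. Of 12 kept stem list genes 11 were positive in both libraries and none negative, with medians of 0.34 and 0.44. Slc12a2, a sodium, potassium and chloride cotransporter of the lower crypt (382.4 against 258.6 CPM in GFP, 377.9 against 222.4 CPM in whole epithelium), and Ephb3, a receptor that positions cells in the crypt (0.51 and 0.64), passed the fold limit in both. Sox9, a transcription factor of the crypt base, stood at 0.42 and 0.73. Lgr5 itself was too rare to be kept. It had a UMI in 16 of 321 Kit goblet cells and 11 of 471 without Kit in GFP. In whole epithelium it was seen in 33 of 411 and 7 of 162. With cells thinned to 5000 UMIs, Lgr5 was seen in 0% of Kit goblet cells and 0.212% of those without Kit in GFP. In whole epithelium the thinned shares were 2.43% and 2.47%. The higher share with Kit was thus not seen at equal depth. Of 11 kept Notch and secretory fate genes 9 were positive in both and 1 negative, with medians of 0.42 and 0.20. Lfng, which modifies Notch receptors, passed the limit in both (0.58 and 0.84) beside Dll1, Atoh1 stood at 0.51 and 0.45, and the Notch target Hes1 was the negative one (-0.20 and -0.52).

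In the Kit signalling list, 28 of 39 genes were kept and 1, Etv5, was past the fold limit in both libraries. Over all genes 1.22% were higher past it in both, so a count of 1 in this list is near that share. Etv5, an ETS transcription factor induced by receptor tyrosine kinase signalling, had 47.4 CPM in Kit goblet cells and 25.9 CPM in goblet cells without Kit in GFP, and 47.8 and 27.4 CPM in whole epithelium (log2 0.87 and 0.79). The list's medians were 0.04 and -0.07, near those of all genes. Kitl, which encodes the ligand, stood at -0.07 and -0.29, and the feedback inhibitors Dusp6 (-0.05 and -0.04) and Spry2 (-0.04 and -0.22) were close to 0 or negative.

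The genes highest in Kit goblet cells in both libraries were taken by the ratio nearer to 0 of the pair. B3galt2 had 9.64 CPM in Kit goblet cells and 4.23 CPM in goblet cells without Kit in GFP, and 30.7 and 10.6 CPM in whole epithelium (1.18, 0.70 to 1.69, and 1.52, 0.95 to 2.19). In the colonocytes it had 0.302 CPM in GFP and 0.457 CPM in whole epithelium. After thinning, the B3galt2 ratio in GFP turned to -0.44, from 3 UMIs in Kit goblet cells and 31 without Kit. Plcb4, a phospholipase C, had 47.2 and 24.2 CPM in GFP and 42.8 and 16.5 CPM in whole epithelium (0.96 and 1.36). Next came Samd5 (0.93 and 1.52), Irak3, an inhibitory kinase of Toll-like receptor signalling (0.85 and 1.33), 1810010D01Rik (0.83 and 1.45) and Tpd52l1 (1.08 and 0.82). Mmp7, a matrix metalloprotease, stood at 0.78 and 2.80, but 1 Kit goblet cell of the library labelled whole epithelium held 165 of its 298 UMIs there. After thinning, Irak3 in GFP turned to -0.08 (4 UMIs in Kit goblet cells and 31 without), Ccl27a in GFP to -1.12 (1 and 21) and Mmp7 in whole epithelium to -0.62 (16 and 46). The rest of the 15 were Etv5, P4ha2 and Pycr1, which take part in proline hydroxylation and proline synthesis, Rnf150, Arhgap24, Fam168a, Ccl27a and Bcl11a, with ratios from 0.76 to 1.20, and for Ccl27a and Bcl11a the whole epithelium interval included 0.

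**Figure D3:**
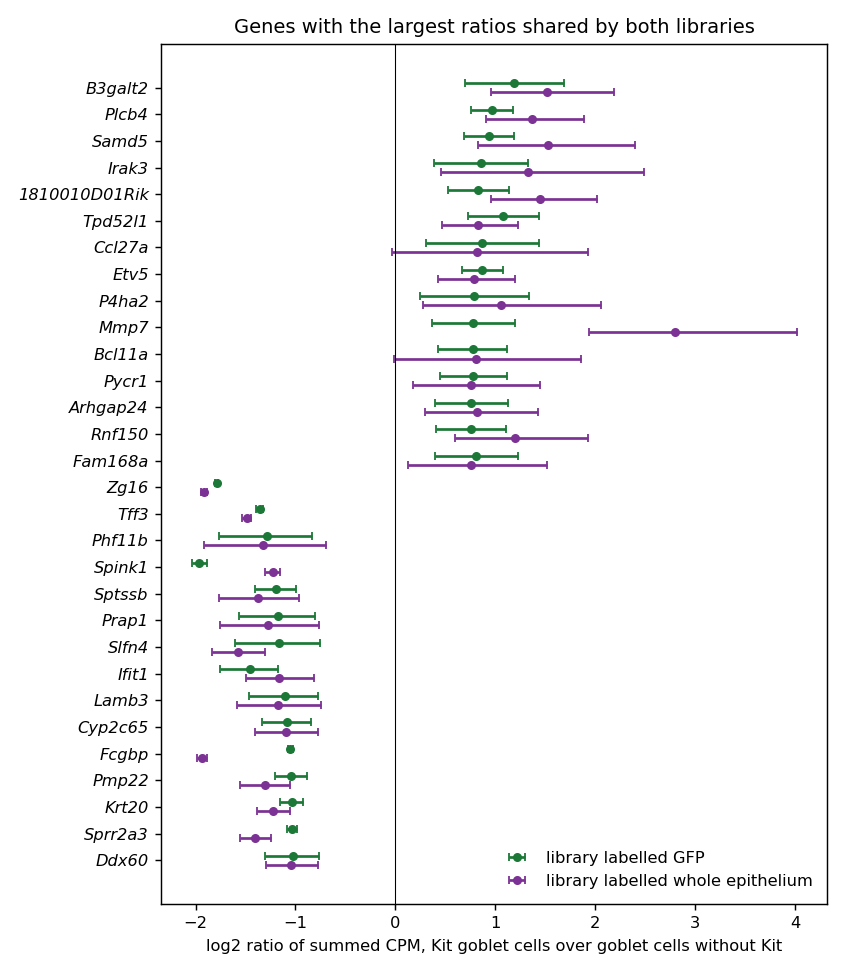
Log2 ratio of summed CPM in Kit goblet cells over goblet cells without Kit for the 15 highest and 15 lowest genes shared by both libraries, with 95% counting intervals. All 30 were chosen to have the same sign in both libraries, so that agreement is no result. The ratios run from 1.18 and 1.52 for B3galt2 to -1.79 and -1.92 for Zg16.

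Colonocyte genes were lower in Kit goblet cells. All 13 of 14 that were kept were negative in both libraries and 11 passed the fold limit in both. Their medians were -0.77 in GFP and -1.27 in whole epithelium, which at standardised depth were -0.78 and -0.38. Among all genes 27.1% were negative in both libraries and 2.11% were lower past the limit in both. Krt20, a keratin of differentiated surface cells, had 84.0 CPM in Kit goblet cells and 172.1 CPM in goblet cells without Kit in GFP, and 83.5 and 194.6 CPM in whole epithelium (-1.03 and -1.22). In whole epithelium Krt20 was at -0.29 when depth was standardised, and Aqp8, a water channel, turned to 0.79, against -0.86 before. Mxd1 (-0.43), Tmigd1 (-0.38), Saa1 (-0.17) and Ceacam20 (-0.10) were then inside the fold limit there too. Car1, a carbonic anhydrase, stood at -0.996 and -1.33, and at -0.96 and -1.27 with depth standardised. The summed level of the 14 genes was 4306 CPM in Kit goblet cells and 7272 CPM in goblet cells without Kit in GFP, and 4844 and 9761 CPM in whole epithelium. Cells with at least 50 UMIs per 10000 of the 5 colonocyte genes named above were 18 of 321 Kit goblet cells and 61 of 471 without Kit in GFP, and 18 of 411 and 19 of 162 in whole epithelium. Without these cells 79 genes were higher and 106 lower in both libraries, of which 70 and 98 were among the 103 and 178, a comparison added after the data were seen. No doublet caller was run, and the part of joint goblet and colonocyte droplets in these ratios was not tested.

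The lowest 15 genes in both libraries held several genes of surface cells and of interferon response beside Zg16, Tff3, Fcgbp and Krt20. Spink1, a trypsin inhibitor, had 171.0 CPM in Kit goblet cells and 666.3 CPM in goblet cells without Kit in GFP, and 429.5 and 1007 CPM in whole epithelium (-1.96 and -1.23). Sptssb, a subunit of the first enzyme of sphingolipid synthesis (-1.19 and -1.37), Cyp2c65 (-1.08 and -1.10), Pmp22 (-1.04 and -1.30), Prap1 (-1.18 and -1.27) and Lamb3, a laminin chain (-1.11 and -1.18), were each higher in colonocytes than in either goblet set. At standardised depth Lamb3 was at -0.27 and Pmp22 at -0.43 in whole epithelium, both inside the fold limit. Sprr2a3, which has near-identical neighbours that the counting may not separate, stood at -1.03 and -1.40. Ifit1 (-1.46 and -1.16), Ddx60 (-1.03 and -1.04), Phf11b (-1.28 and -1.32) and Slfn4 (-1.16 and -1.58) completed the set. Among all genes 27.1% were negative in both libraries and 2.11% were lower past the fold limit in both. Of 22 kept interferon response genes 19 were negative in both libraries and none positive, with medians of -0.28 and -0.38. Of these, Ifit1, Ifit1bl1, Isg15 and Oasl2 passed the fold limit in both. At standardised depth the whole epithelium median was -0.17, with Ifit1 at -0.46 and Ifit1bl1 at -0.04, inside the limit, and Isg15 at -0.96 and Oasl2 at -0.71, past it. Ifit1 was also more abundant in colonocytes, at 98.8 CPM in GFP and 275.7 CPM in whole epithelium, and the part of colonocyte RNA in these ratios was not tested.

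Antimicrobial genes differed in direction. Ang4, an antibacterial ribonuclease, had 3533 against 4900 CPM in GFP and 54.8 against 170.9 CPM in whole epithelium (-0.47 and -1.64), while Retnlb, a goblet cell protein that acts on bacteria, stood at 0.13 and 0.55. Wfdc18, a whey acidic protein family member, was past the fold limit upward in both (0.60 and 0.93), and Zg16 and Lypd8, which binds flagella, downward. The 15 kept genes had medians of -0.17 and 0.21. None of 6 MHC class II genes, 23 immediate early and heat shock genes or 13 mitochondrial genes passed the limit in both, and their medians lay between -0.24 and -0.02. Past the limit in both were 1.22% of all genes upward and 2.11% downward, so empty counts in lists this short are near that share.

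No cell cycle gene kept passed the fold limit in both libraries, among 18 S phase and 19 mitosis genes. Over all genes 1.22% were higher and 2.11% lower past it in both, so an empty count in lists this short is near that share. The medians were 0.09 and -0.04 for S phase and 0.03 and -0.37 for mitosis. Of the mitosis genes 0 were positive and 8 negative in both libraries, and of the S phase genes 6 and 1. After thinning to 5000 UMIs, at least 3 UMIs of the mitosis list were seen in 32.1% of Kit goblet cells and 34.8% of goblet cells without Kit in GFP, and in 16.5% and 40.1% in whole epithelium. At standardised depth the whole epithelium median was -0.70 for mitosis and -0.29 for S phase, both further below 0 than without it.

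Other known Kit-expressing cells were looked for by their markers. Cpa3, the carboxypeptidase that defines mast cells, had 0 UMIs in the Kit goblet cells of both libraries. The 13 mast cell genes summed to 18.7 CPM in Kit goblet cells and 13.9 CPM in goblet cells without Kit in GFP and to 10.6 and 8.02 CPM in whole epithelium, with 7 and 6 of them at 0 in the Kit goblet cells of GFP and whole epithelium. Ano1, which marks interstitial cells of Cajal, was found in 53.6% of Kit goblet cells and 42.4% of colonocytes in GFP, and in 57.9% and 27.1% in whole epithelium. Goblet cells without Kit had it in 52.9% in GFP and 39.5% in whole epithelium. Thinned to 5000 UMIs, the Ano1 shares were 17.1% in Kit goblet cells, 17.2% in goblet cells without Kit and 20.0% in colonocytes of GFP, and 17.03%, 21.0% and 13.9% in whole epithelium. Of the 9 genes of that list 2 were kept, and neither passed the fold limit in both libraries. With 1.22% of all genes higher and 2.11% lower past it, an empty count here is near that share. Stroma and endothelium genes summed to 1.52 and 1.93 CPM in GFP, and 2.44 and 3.80 CPM in whole epithelium. T and NK cell genes summed to 1.01 and 1.34 CPM in GFP and to 31.3 and 23.6 CPM in whole epithelium, where 1 Kit goblet cell held 250 of 334 UMIs. Of the enteroendocrine list 3 of 17 genes were kept, Pcsk1, a prohormone convertase (0.66 and 1.16), Pyy, a peptide hormone (-1.45 and -1.33), and Chgb, a granin (-3.95 and 1.34). At standardised depth Pyy was at 0.14 in whole epithelium. Cd24a was the only gene of the 15 tuft genes kept.

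The goblet cells were also split by their number of Kit UMIs, which moves with depth. Zg16 averaged 30.4, 16.8 and 37.4 UMIs per 10000 in cells with 1, with 2 or 3, and with 4 or more Kit UMIs in GFP, against 95.7 in cells without Kit. In whole epithelium the averages were 46.5, 16.5 and 4.26, against 64.5 in cells without Kit. Cd24a averaged 5.80, 7.33 and 8.93 in GFP, against 3.998 without Kit, and 7.26, 9.12 and 12.5 in whole epithelium, against 4.40 without Kit. Cd24a and Spdef thus increased with each class in both libraries, and Zg16, Clca1, Fcgbp and Tff3 decreased with each class in whole epithelium only, while in GFP the last class, of 21 cells, was above the one before. Median depth in the classes of 0, 1, 2 or 3 and 4 or more Kit UMIs was 25001, 25199, 28486.5 and 26322 UMIs in GFP, and 10808, 18353.5, 22011 and 25018.5 UMIs in whole epithelium.

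**Figure D4:**
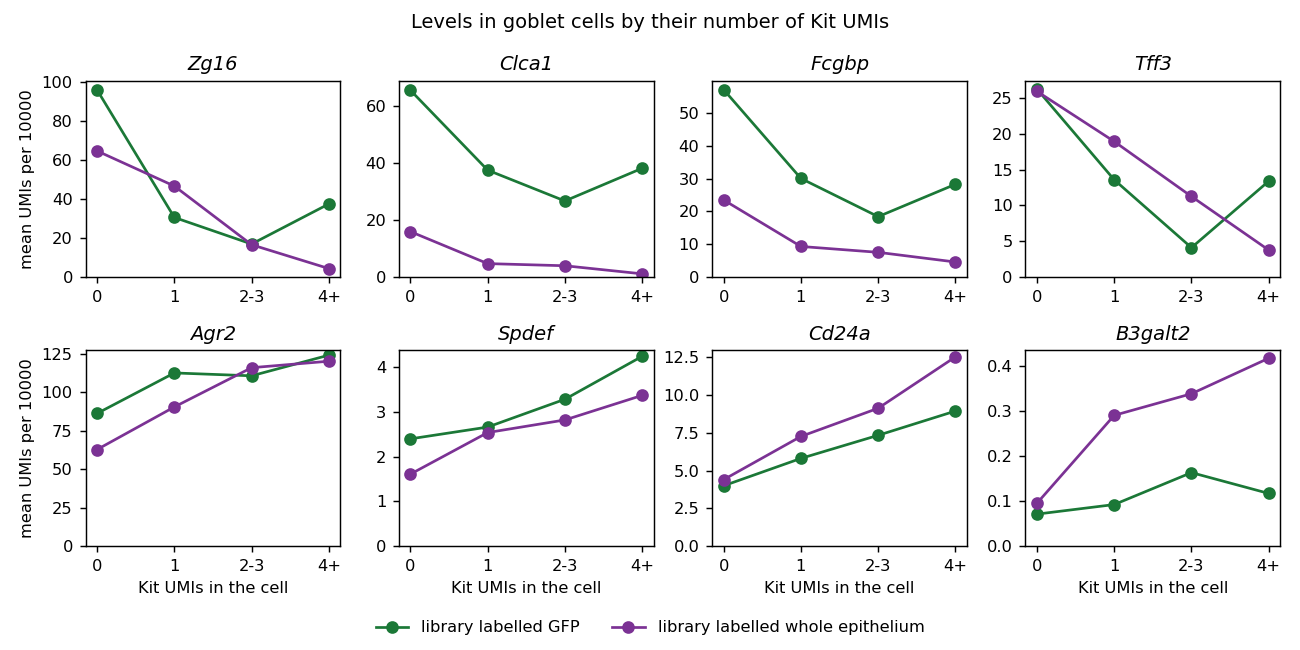
Mean UMIs per 10000 of 8 genes (y axes start at 0) in goblet cells with 0, 1, 2 to 3 and 4 or more Kit UMIs, for each library. Zg16 is highest in the class without Kit, 95.7 in GFP and 64.5 in whole epithelium, and Cd24a is highest in the class with the most Kit, 8.93 and 12.5.

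Between the libraries, 146 of 9506 genes (1.54%) were at least 2-fold higher and 207 (2.18%) at least 2-fold lower in Kit goblet cells of the library labelled GFP, with a median log2 ratio of 0.02. Ang4 had 3533 CPM in GFP and 54.8 CPM in whole epithelium (log2 6.01), Retnlb 34711 and 1873 CPM (4.21), Clca1 3081 and 333.2 CPM (3.21), and Itln1, a lectin, 92.1 and 8.62 CPM (3.41). Dmrta2 stood at 6.28 (4.72 to 9.65), with 179 UMIs in GFP and 2 in whole epithelium, and Pla2g4c, Plxnd1, Lpo and Pnliprp2 at 3.35 to 4.69. These genes were also higher in GFP in goblet cells without Kit, with Ang4 at 4.84 and Retnlb at 4.63. The difference was thus not limited to Kit goblet cells. In colonocytes these genes were higher in GFP too, with Ang4 at 6.54 and Retnlb at 5.57. A Retnlb UMI was seen in 99.9% of colonocytes in GFP, at 976.2 CPM, and in 27.1% in whole epithelium. Goblet cells were 20.0% of kept cells in GFP and 10.7% in whole epithelium. The part of goblet cell RNA from outside the cell in the colonocyte ratios was not tested.

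Lower in GFP were Ido1, an interferon-induced enzyme of tryptophan breakdown (1.22 CPM in GFP and 80.7 CPM in whole epithelium, log2 -5.99), Gm1965 (-5.82), Gt(ROSA)26Sor (-5.15), the noncoding RNA Meg3 (-4.61), the chemokines Ccl5 (-4.44) and Cxcl9 (-3.71), Ifi27l2b (-4.03), Gnai1 (-3.69), the small heat shock protein Hspb1 (-3.61) and 2210407C18Rik (-3.51). Of the 129 Ccl5 UMIs in whole epithelium 102 were in 1 cell, and of the 176 Cxcl9 UMIs there 117 were in 3 cells. Under other processing choices the Ccl5 ratio ranged from -5.78 to -0.84 and the Cxcl9 ratio from -4.04 to -0.42. Ido1 stood at -2.24 in goblet cells without Kit and at -1.65 in colonocytes, and Cxcl9 at -0.85 and -1.50. Ido1 was spread over 45 Kit goblet cells of whole epithelium, of which the 3 highest held 335 of 861 UMIs. The mice differed in reporter allele, tamoxifen, sorting and library, and the part of each in these differences cannot be told apart.

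**Figure D5:**
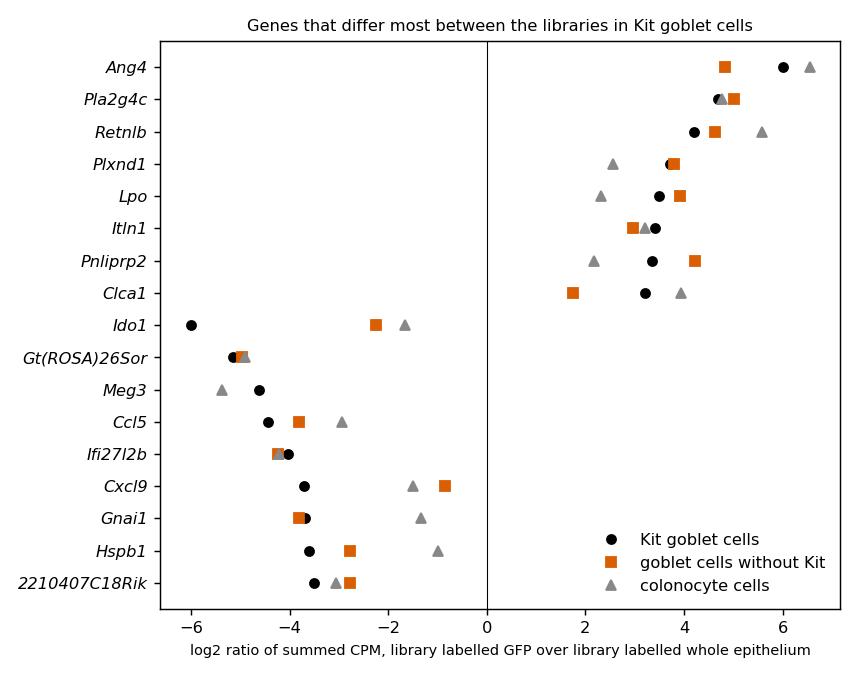
Log2 ratio of summed CPM, library labelled GFP over library labelled whole epithelium, for 8 higher and 9 lower genes in Kit goblet cells (circles), those of the genes with the largest ratios that had at least 5 UMIs there in each library, with the same ratio in goblet cells without Kit (squares) and colonocytes (triangles); a point is left out where either library had 0 UMIs. The signs match across the 3 cell sets for every point drawn.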

How the data were processed

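Droplet libraries were made from colon epithelium with the 10x Genomics 3' v2 chemistry, per the labels' protocols. The authors deposited counts of UMIs per gene and barcode, made on build mm10 with Cell Ranger 2.1.1 per the submitters' processing notes, while the matrix headers name software 3.1.0. Both matrices list 31053 genes, and of 35 repeated symbols the first row was used. No deposited column was left unmapped (0). Counts were analysed in Python 3.11.15 with numpy 2.4.6, scipy 1.17.1 and pandas 2.3.3. UMIs were summed over the cells of a set and given as CPM, and log2 ratios used 0.5 UMI added to each sum, with conditional binomial intervals. Shares have Clopper-Pearson intervals. Depth standardisation weighted cells without Kit to the 5 depth classes of the Kit cells, and thinning drew 5000 UMIs per cell. The ratio computation was checked on simulated counts. Doublets were kept. Named genes were all genes of 23 lists, the 15 highest and 15 lowest ratios shared by both libraries, and the 10 highest and 10 lowest between libraries, sex-linked genes left out. A gene that this rule names is not reported here. The members and lists were chosen with earlier results of these data known. Alternatives were other limits for depth, mitochondrial share, Muc2, Kit and gene counts, thinning, cell weights and depth standardisation.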

Additional observations from a re-analysis of the deposited data

Results flagged for a closer look

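The ratio of Chgb, a granin of enteroendocrine cells, had opposite signs in the libraries. Its log2 ratio in Kit goblet cells over goblet cells without Kit was -3.95 in the library labelled GFP and 1.34 in the library labelled whole epithelium, a difference of -5.29 that was not tested. Few cells carried it. In GFP the Kit goblet cells held 69 Chgb UMIs, and the goblet cells without Kit held 1468, of which 1081 were in 3 cells. In whole epithelium the Kit goblet cells held 199, of which 157 were in 3 cells, and the goblet cells without Kit held 17.

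Reg4 also had opposite signs, at 0.30 in GFP and -0.66 in whole epithelium, and the difference of 0.96 was not tested. The sign in whole epithelium turned when each cell was given the same weight (0.16) and when cells were thinned to 5000 UMIs (0.31).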

How the results depend on the processing

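The share of goblet cells with Kit in the library labelled whole epithelium was 81.0% with at least 10000 UMIs, 80.3% with at most 10% mitochondrial UMIs, 64.7% and 79.7% with Muc2 limits of 25 and 100, 50.4% with at least 2 Kit UMIs and 35.3% after thinning, and in GFP 16.3% with at least 2 Kit UMIs and 13.1% after thinning. Genes higher in both libraries numbered 202 with at least 2 Kit UMIs, 50 after thinning, and 252 or 30 with gene limits of 20 or 500 UMIs. Genes lower in both numbered 95 after thinning, 271 or 71 with those gene limits, and 106 without goblet cells rich in colonocyte UMIs, an alternative chosen after seeing the data. After thinning, 9 of the 50 higher and 54 of the 95 lower genes were among the main ones. The Reg4 ratio in GFP was 0.40 and 0.13 with Muc2 limits of 25 and 100, 0.0549 with at least 2 Kit UMIs, 0.53 after thinning, 0.35 without the deepest 5% of cells, 0.46 with equal weights and 0.22 without colonocyte-rich cells. In whole epithelium it was -0.93 with at least 10000 UMIs, -0.45 and -1.65 with the Muc2 limits, -0.55 with at least 2 Kit UMIs and also without the deepest cells, -0.87 at standardised depth, and it reversed to 0.31 after thinning and 0.16 with equal weights. After thinning, the GFP ratios of B3galt2 (-0.44, from 3 UMIs in Kit goblet cells and 31 without Kit), Irak3 (-0.0815, 4 and 31) and Ccl27a (-1.12, 1 and 21) and the whole epithelium ratio of Mmp7 (-0.62, 16 and 46) reversed. List medians that reversed in whole epithelium were those of mitochondrial genes (0.13 with at most 10% mitochondrial UMIs and 0.0106 at standardised depth), enteroendocrine genes (-0.14 with Muc2 at 25), deep crypt secretory (-0.0201) and mitosis genes (0.0344) with Muc2 at 100, antimicrobial (-0.15) and ribosomal genes (-0.0268) after thinning, and immediate early genes (0.000217 with equal weights). The cause of these changes was not tested. Of 600 values of the 30 genes with the largest shared ratios, all but the 4 reversed above kept their sign, and 437 were within the counting interval of the main value. The other list genes were recomputed only with equal weights and at standardised depth. Of 305 list genes, 20 and 5 changed sign in GFP and 36 and 50 in whole epithelium under these alternatives, among them Gbp2 in whole epithelium, at 0.31 at standardised depth against -0.50. No paired analysis was possible because each group is 1 library and the labels give no replicate numbers. With the matrices as recorded, every direction between the libraries would turn.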
